A study of Mus musculus with 27 samples.

Results

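Lung RNA of the inbred mouse strains C3H/HeJ and MRL/MpJ was compared across all named genes on the array. The comparison is between the 6 arrays that the labels assign to these strains, 3 for each. The spread behind the p-values was estimated from all 27 arrays of 9 strains. Below, all arrays means all 27. All mice were 11-week-old females with no treatment named in the labels, and the right lung was taken. The series relates strain differences in lung RNA to spontaneous lung adenomas, and its labels class C3H/HeJ as increased in adenoma severity and decreased in frequency, and MRL/MpJ as decreased in both. C3H/HeJ is an inbred strain known for a defective Toll-like receptor 4 and for an inherited retinal degeneration. MRL/MpJ is an inbred strain known for rapid closure of ear wounds and for a background that favours autoimmunity, and it was bred from crosses that included C3H stock. The labels give neither strain a transgene or an induced mutation. Results are given with all arrays and without array 2 of C3H/HeJ, on which skeletal muscle and fat transcripts were far above the level of the other arrays.

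In the lung, gas exchange takes place across thin alveolar type I cells, type II cells make surfactant, club, ciliated and mucous cells line the airways, and alveolar macrophages clear surfactant and particles from the air spaces. Inbred strains can differ in RNA level through sequence variants near a gene, through deleted or duplicated copies, and through differences in the cells a tissue holds. In whole lung, fewer cells of a type and less RNA per cell cannot be told apart. A probe set also reads lower in a strain whose sequence differs from the probes, and the sequences of these mice were not analysed here.

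The defining markers of lung were bright on all 6 arrays: Sftpc, a surfactant protein of type II cells, read 12.98 to 13.25 and Scgb1a1, the main secreted protein of club cells, read 12.76 to 13.02 on the log2 scale of the deposited signal. Correlations over all named genes were 0.984 to 0.992 within C3H/HeJ, 0.991 to 0.993 within MRL/MpJ and 0.979 to 0.992 between them. Array 3 of C3H/HeJ was closest to an A/J array, and each of the other 5 was closest to an array of its own strain. The run numbers in the labels separate the strains, with all 3 C3H/HeJ arrays before all 3 MRL/MpJ arrays, so run order and strain cannot be told apart. The 3 arrays of a strain are separate mice per the labels, and p-values measure the spread between such mice.

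With all arrays, 834 of 20239 genes (4.12%) differed between the strains at a limma adjusted p under 0.05, the threshold behind every call below. Of these, 472 (2.33%) were higher in C3H/HeJ and 362 (1.79%) were lower. This balance turned with the scaling: median centring gave 430 higher and 508 lower, and quantile normalization 532 and 542. Without array 2 of C3H/HeJ the count was 598 (2.95%), with 322 (1.59%) higher and 276 (1.36%) lower. Both fits called 511 genes (2.52%), 286 higher and 225 lower, and none of the 511 had a different sign in the other fit. A further 323 genes were called only with array 2 and 87 only without it. Leaving out C3H/HeJ array 1 lowered the higher count to 288, and leaving out MRL/MpJ array 3 lowered both counts, to 291 and 217. Most differences were small: the median absolute difference of the 511 genes was 0.55 on the log2 scale, and 205 of them (40.1%) were under 0.5. A difference of at least 1 together with the adjusted p was met by 79 genes (0.390%) with all arrays, 46 higher and 33 lower, and by 81 (0.400%) without array 2, with 70 genes in both, and leaving out C3H/HeJ array 3 raised the higher count from 46 to 74. The arrays of the strains did not overlap for 505 of the 511 genes, against 3661 of all genes (18.1%). The median difference over all genes was -0.005 with all arrays and -0.015 without array 2. Leaving out each of the 6 arrays in turn, 336 of the 834 genes (40.3%) were called in all 6 fits.

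**Figure D1:**
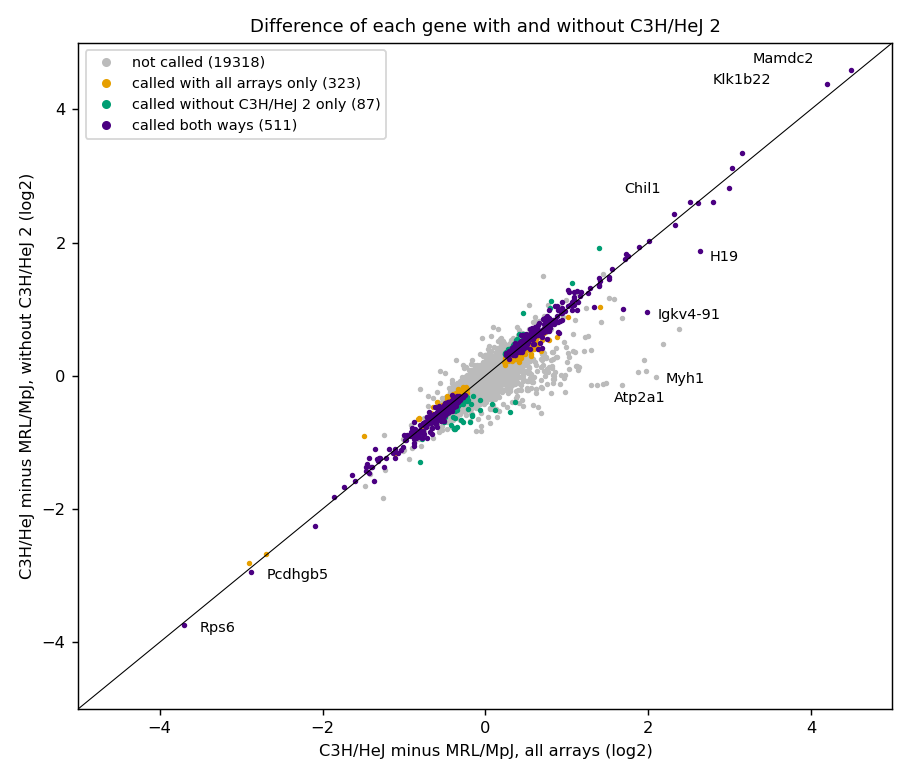
Difference between the strains for each of 20239 genes, C3H/HeJ minus MRL/MpJ on the log2 scale, with all arrays (horizontal axis) and without array 2 of C3H/HeJ (vertical axis). The line marks equal values, colours mark which fit called the gene, and muscle genes such as Myh1 and Atp2a1 lie off the line near 0 on the vertical axis.

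Array 2 of C3H/HeJ carried skeletal muscle transcripts. Myh1, a fast myosin heavy chain, read 4.11, 10.17 and 3.60 on C3H/HeJ arrays 1 to 3 and 4.03, 3.74 and 3.83 on the MRL/MpJ arrays. Its difference was 2.09 with all arrays (adjusted p = 0.22) and -0.01 without array 2. Myh2, a further fast myosin, read 4.25 and 4.28 on C3H/HeJ arrays 1 and 3 and 4.29, 4.15 and 4.17 in MRL/MpJ. Only the second C3H/HeJ array was high for either myosin. Atp2a1, the calcium pump of fast muscle, read 5.44, 10.89 and 5.39 against 5.38, 5.33 and 5.37. Mybpc1, a myosin-binding protein, read 4.37, 9.77 and 4.33 against 4.62, 4.28 and 4.55. Acta1, skeletal muscle actin, read 6.53, 11.56 and 6.29 against 6.46, 6.25 and 5.82. Brown fat was present too: Ucp1, the heat-producing uncoupling protein of brown fat, read 4.58, 9.85 and 4.91 against 4.18, 4.41 and 4.22. For 20 genes the difference moved by at least 1 when array 2 was left out, and for each of them array 2 was the high one.

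Over whole marker lists the same array stood apart. Each list was summarised per array as the median, over its genes, of the array level minus the mean of the other 7 strains. For 22 skeletal muscle genes this median was 3.25 on array 2 of C3H/HeJ and 0.05 to 0.17 on the other 5 arrays. Among 17 white fat genes it was 2.12 on that array and -0.35 to 0.14 on the others, and among 10 brown fat genes 1.28 against -0.13 to 0.18. None of the 22 skeletal muscle genes and none of the 17 white fat genes was called by limma in either fit (15 and 8 had an unadjusted p under 0.05 with all arrays, 4 and 0 without array 2), and 1 of 10 brown fat genes, Otop1, was called with all arrays only. The median difference between the strains was 0.93 for skeletal muscle genes with all arrays and -0.06 without array 2, and 1.02 and 0.14 for white fat genes. Lung expresses cardiac muscle genes in the sleeves of its large veins. The 21 measured stood at 0.11 to 0.39 in C3H/HeJ and at 0.43 to 0.79 in MRL/MpJ, with no overlap. Other lists also separated without overlap, among them neutrophil, ciliated and B cell genes. With all arrays, 2 of the 21 cardiac genes were called lower and 1, Hspb7, higher, beside 4.12% of all genes. Differences were above 0 for 7 of the 21 with all arrays and for 2 without array 2. Of the 21, only Tnni3, cardiac troponin I, was called in both fits. It differed by -0.63 ± 0.14 (SE) with all arrays (adjusted p = 0.00888) and by -0.60 without array 2. The Tnni3 call was lost without MRL/MpJ array 1 (adjusted p = 0.0517). The part of muscle, fat and vein tissue in the gene differences was not tested.

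**Figure D2:**
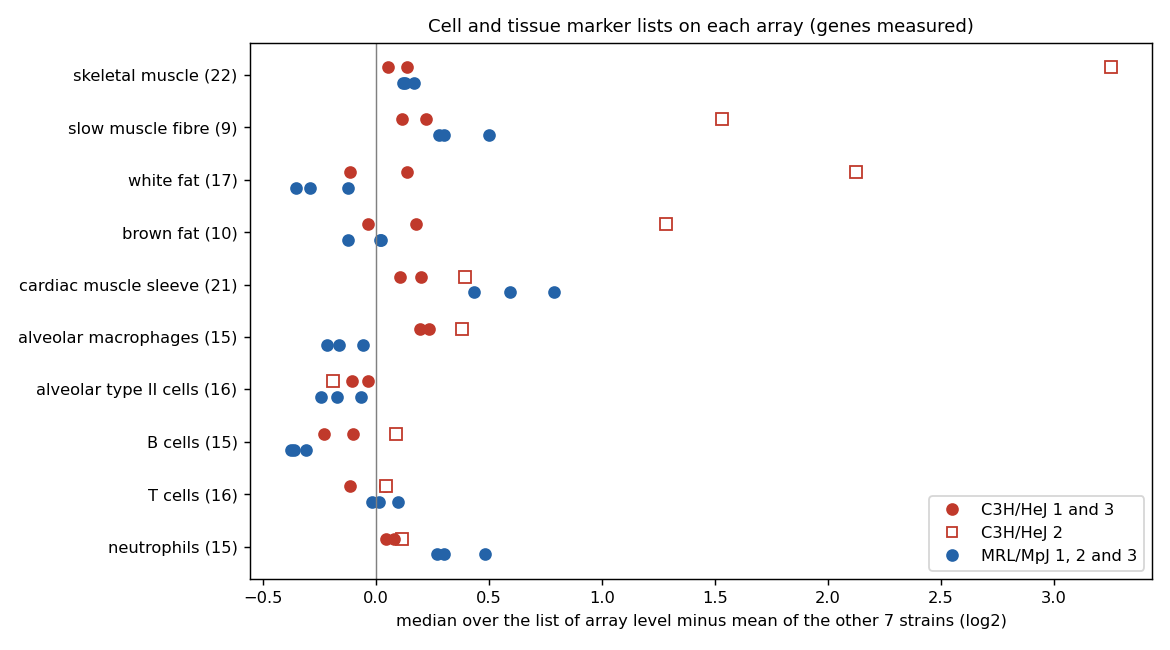
Median over each marker list of the array level minus the mean of the other 7 strains (log2), 1 point per array, with the number of genes measured in brackets. The open square is array 2 of C3H/HeJ, at 3.25 for skeletal muscle and 2.12 for white fat, while the other 5 arrays lie between -0.35 and 0.17 for these lists.

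The genes of largest difference were named only if called in both fits and with no overlap between the arrays of the strains. Mamdc2, which encodes a secreted protein with MAM domains, had the largest measured difference. It read 8.80, 8.39 and 8.60 on C3H/HeJ arrays 1 to 3 and 4.32, 3.90 and 4.11 on MRL/MpJ arrays 1 to 3. The strains were far apart, at a difference of 4.49 ± 0.13 (adjusted p = 1.05e-16) and of 4.59 without array 2. The means of the other 7 strains lay between 8.63 and 9.14, so MRL/MpJ was the low strain. Klk1b22, a tissue kallikrein of a protease family that processes growth factors, read 7.15, 7.07 and 8.09 against 3.36, 3.47 and 2.91, a difference of 4.19 ± 0.25 (adjusted p = 5.53e-11). As a mark of the level without transcript, 8 Y-linked genes had strain means of 2.50 to 5.11 in these females, with a median of 3.14. Sry alone sets the top of that range, at 5.02 and 5.11, and the other Y-linked genes reached at most 3.50. The MRL/MpJ values of Klk1b22 lie within the range without Sry, and those of Mamdc2 only with it. The Klk1b22 difference is read as a lower bound, and the Mamdc2 difference may be one. The same caution holds for other genes whose low strain reads under 5.11. Klk1b22 was the only one of 12 kallikrein genes called in either fit. Gbp2b, an interferon-inducible guanylate-binding GTPase that several inbred strains lack, read 7.74, 7.29 and 7.35 against 4.31, 4.51 and 4.46. This gave 3.03 ± 0.12 (adjusted p = 5.11e-14), and the other 7 strains spanned 4.08 to 7.83.

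Chil1 encodes a secreted chitinase-like protein made by macrophages and epithelium. It read 11.47, 11.45 and 11.36 in C3H/HeJ and 8.86, 8.83 and 8.76 in MRL/MpJ. Its difference was 2.61 ± 0.12 (adjusted p = 4.51e-13), the arrays of each strain were tightly grouped, and MRL/MpJ lay just under the other 7 strains, which spanned 9.04 to 11.90. Chil1 was the only one of 7 chitinase family genes called in either fit. Baiap2l1, which shapes the actin cytoskeleton under the membrane, read 10.05, 9.77 and 10.16 against 7.81, 7.74 and 7.49. Its difference of 2.31 ± 0.11 had an adjusted p of 1.51e-12. Gatm, the first enzyme of creatine synthesis, read 7.76, 7.70 and 7.70 against 5.84, 5.73 and 5.56, a difference of 2.01 ± 0.10 (adjusted p = 1.51e-12). Rnf7, the RING subunit of cullin ubiquitin ligases, read 7.50, 7.56 and 7.90 against 5.52, 6.25 and 5.92, at 1.76 ± 0.14 (adjusted p = 1.68e-08). For Baiap2l1, Gatm and Rnf7 the strains did not overlap, as the naming rule required. Without array 2 the difference was 2.42 for Baiap2l1 and 2.02 for Gatm.

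Further large differences were less firm or could not be tied to a single gene. H19, an imprinted non-coding RNA of growing tissue that muscle also makes, read 8.20, 10.14 and 7.56 in C3H/HeJ and 6.0, 6.01 and 5.99 in MRL/MpJ. All 3 C3H/HeJ arrays were above every MRL/MpJ array, as the naming rule required, but the muscle-bearing array was the highest. The difference was 2.63 with all arrays (adjusted p = 2.33e-05) and 1.88 without array 2 (adjusted p = 4.84e-09). H19 was the only one of 16 imprinted growth genes called. An immunoglobulin kappa variable segment of the Igkv4 group was also high on array 2, and its difference of 1.99 was 0.96 without that array and was not called without MRL/MpJ array 2 or array 3 (adjusted p up to 0.0664). Chchd2, a mitochondrial intermembrane space protein, read 9.99, 10.09 and 11.31 against 6.98, 9.59 and 5.36, and its call was lost without C3H/HeJ array 3 and without MRL/MpJ array 1 or array 3 (adjusted p up to 0.119). Rpl31-ps21 and Rps3a3 carry the names of ribosomal protein copies, and near-identical copies can share probes. Rpl31-ps21 differed by 2.80 and Rps3a3 by 2.32. Gm14548 differed by 2.99 and Zfp979 by 2.51, and all 4 of these were called in each of the 6 fits that left out an array.

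Lower in C3H/HeJ, Rps6, which encodes part of the small subunit of the ribosome, read 2.85, 3.15 and 3.24 against 6.86, 6.85 and 6.65, a difference of -3.71 ± 0.31 (adjusted p = 2.54e-08). Its C3H/HeJ values lie within the range of the Y-linked genes, although every cell makes this protein. The difference is one of probe set signal, and whether Rps6 RNA differs was not tested. The other 7 strains spanned 3.80 to 6.98. Pcdhgb5, a gamma protocadherin, read 4.01, 4.64 and 4.87 against 7.76, 7.59 and 6.83. Its difference was -2.88 ± 0.35 (adjusted p = 1.21e-05) and -2.95 without array 2. Fibin, a secreted factor named for fin bud growth, read 6.36, 6.94 and 6.53 against 8.74, 8.69 and 8.67, at -2.09 ± 0.16 (adjusted p = 5.14e-09). The adjacent gene Slc5a12, a lactate transporter best known in kidney and gut, read 4.33, 4.21 and 4.34 against 6.16, 5.91 and 6.41, at -1.86 ± 0.16. Neither gene overlapped between the strains, as the naming rule required.

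Apob, the structural protein of large lipoproteins, read 4.40, 4.50 and 4.70 in C3H/HeJ and 5.95, 6.54 and 5.91 in MRL/MpJ, a difference of -1.60 ± 0.20 (adjusted p = 2.20e-05), and MRL/MpJ was above all other strains. Cxcl14, a chemokine of epithelia and fibroblasts, read 8.0, 7.46 and 7.67 against 9.36, 9.24 and 8.89, at -1.45 ± 0.15 (adjusted p = 8.59e-07). Bpifb1, a protein that airway mucous cells secrete, read 8.49, 8.45 and 8.22 against 9.96, 9.74 and 9.76. Its difference was -1.43 ± 0.30 (adjusted p = 0.00561), with the other 7 strains between 8.08 and 10.46. Ctse, the aspartic protease cathepsin E, read 5.63, 6.43 and 5.92 against 7.36, 7.52 and 7.20, at -1.37 ± 0.19 with all arrays and -1.58 without array 2. The strains did not overlap for any of these genes, as the naming rule required. Nptx1 (-1.47), Hepacam (-1.46), Ankrd63 (-1.40), Copz2 (-1.39) and Dnah7a (-1.43), an axonemal dynein heavy chain, completed the 15 genes with the largest lower differences by the naming rule, together with Zfp949 (-1.73) and Gm7582 (-1.64). Each was called in all 6 fits that left out an array.

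**Figure D3:**
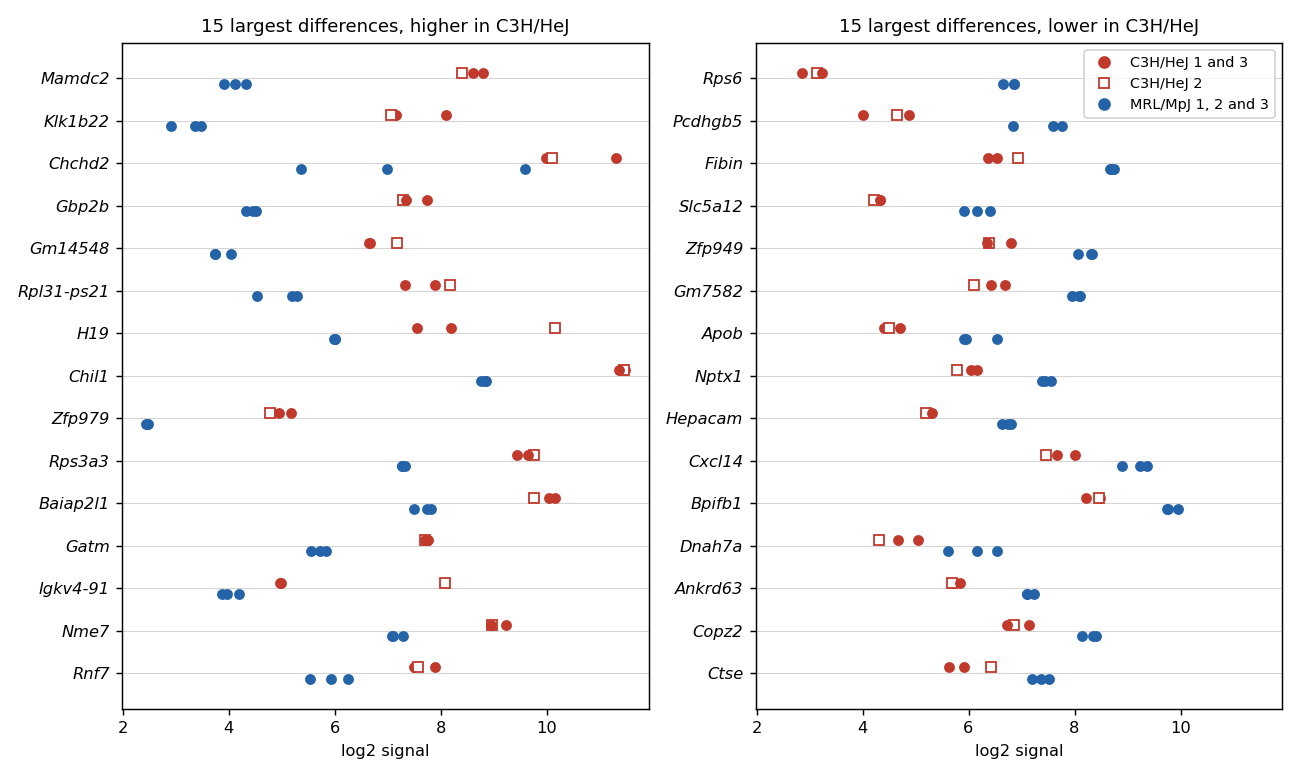
Log2 signal of the 15 genes with the largest difference in each direction among those called with and without array 2 and not overlapping between the strains, 1 point per array. Mamdc2 reads 8.39 to 8.80 in C3H/HeJ and 3.90 to 4.32 in MRL/MpJ, and the open square of array 2 stands apart from both other C3H/HeJ arrays for H19.

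The mean of each strain was set against the range of the other 7 strain means to see which strain was the unusual one. Of the 511 genes called in both fits, MRL/MpJ alone lay outside that range for 185 (36.2%), 80 above and 105 below. C3H/HeJ alone lay outside for 128 (25.0%), 75 above and 53 below. Both lay outside for 77 (15.1%) and neither for 121 (23.7%). Over all genes the shares were 22.9% for MRL/MpJ, 14.1% for C3H/HeJ, 15.8% for both and 47.2% for neither. The call itself favours genes with outlying means, so these shares carry no test.

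Among genes low in MRL/MpJ beside Mamdc2 and Rnf7, 3 were chosen after their values were seen, because MRL/MpJ lay below all 8 other strains. Cemip2, a hyaluronidase of the cell surface, read 9.93, 9.63 and 9.93 in C3H/HeJ and 8.07, 8.25 and 8.0 in MRL/MpJ, a difference of 1.72 ± 0.10, with the other 7 strains at 9.25 to 9.78. Ezh1, a histone methyltransferase of the Polycomb group, read 8.90, 8.84 and 8.81 against 7.88, 7.74 and 7.76, at 1.06 ± 0.06. The other 7 strains were between 8.80 and 9.01 for Ezh1. Capg, an actin-capping protein of macrophages, read 7.77, 7.97 and 7.94 against 6.34, 6.31 and 6.47, at 1.52 ± 0.09. In the opposite direction Vwa5a and AW551984 were also chosen after their values were seen. Vwa5a read 9.02, 8.78 and 8.80 in C3H/HeJ and 10.16, 10.24 and 10.17 in MRL/MpJ, with the other 7 strains at 8.91 to 9.21. AW551984 read 3.66, 4.10 and 3.86 against 5.02, 4.95 and 5.40, with the others at 3.71 to 3.86. MRL/MpJ was thus above all 8 other strains for Vwa5a and AW551984.

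C3H/HeJ was the unusual strain for Nme7, a nucleoside diphosphate kinase family member tied to the centrosome, which read 9.23, 8.96 and 8.95 against 7.10, 7.08 and 7.28 in MRL/MpJ. The difference was 1.89 ± 0.11 (adjusted p = 3.56e-11) and the other 7 strains were at 7.02 to 7.40. Hbegf, a ligand of the EGF receptor, read 9.61, 9.53 and 9.64 against 8.56, 8.32 and 8.07, at 1.28 ± 0.11 (adjusted p = 2.55e-08), with the others at 8.02 to 8.54. Ppp1r21 and Sfmbt2, a Polycomb group protein, were chosen after their values were seen. Ppp1r21 read 8.94, 8.84 and 9.0 against 7.95, 7.84 and 7.80, and Sfmbt2 read 6.26, 5.85 and 5.91 against 4.95, 4.79 and 4.76. All 3 C3H/HeJ arrays were above every strain mean for these 4 genes. Copz2, a subunit of the coat of Golgi transport vesicles, was low in C3H/HeJ: it read 7.13, 6.86 and 6.73 against 8.35, 8.15 and 8.40, at -1.39 ± 0.09 (adjusted p = 1.42e-10), with the others at 7.92 to 8.26.

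**Figure D4:**
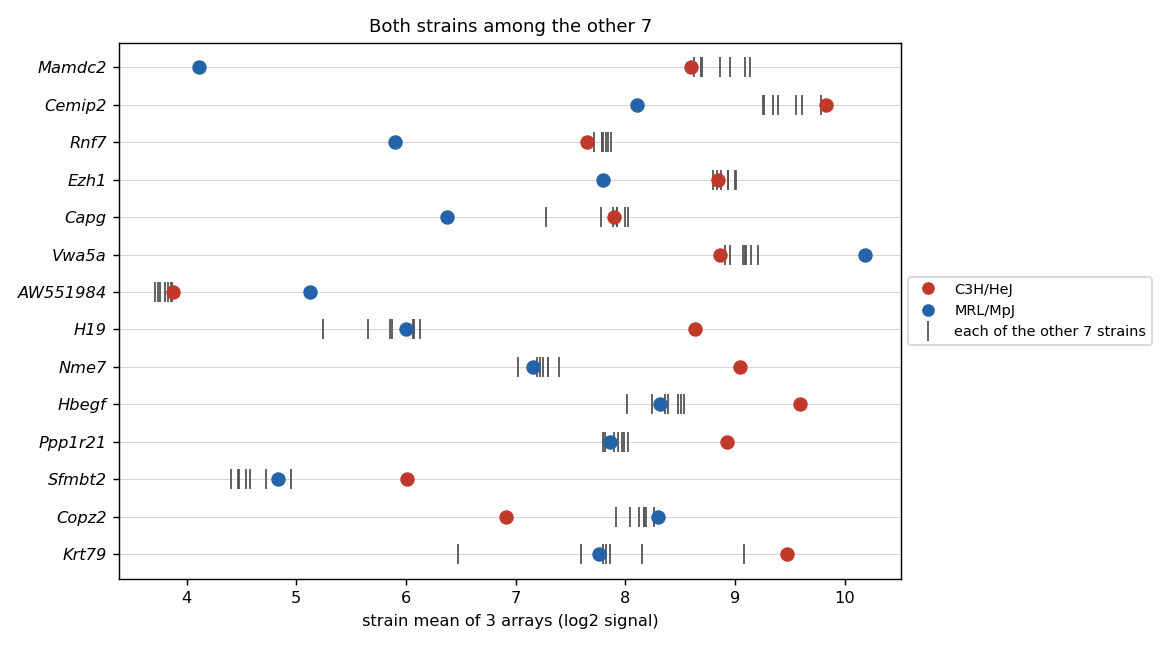
Strain means (3 arrays each, log2 signal) of C3H/HeJ, MRL/MpJ and each of the other 7 strains for 14 genes. For Mamdc2 and Rnf7 the MRL/MpJ point lies far below all other strains, and for Nme7 and Hbegf the C3H/HeJ point lies above them.

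The reference sequence of 250 bases before the gene start is shown for 4 of these genes, since in each 1 strain lay apart from the rest or at the edge of the range. It is the RefSeq sequence of the mouse assembly GRCm38.p6, not that of C3H/HeJ or MRL/MpJ. Capitals mark 3 short promoter motifs searched on both strands. These are the TATA box motif TATAAA, the CCAAT box, and the GC box motif GGGCGG. Neighbouring GC boxes overlap in the Rnf7 and Copz2 windows. Over the same window of 15651 measured genes these motifs occurred in 11.5%, 35.7% and 45.7%, and in 6.48%, 33.4% and 47.2% of the 386 called genes that have an entry, with matches counted as letters and not as binding sites. Chil1 lies at chr1:134181906-134182155, plus strand. Rnf7 lies at chr9:96478676-96478925, minus strand. Nme7 lies at chr1:164307422-164307671, plus strand. Copz2 lies at chr11:96849626-96849875, plus strand.
Chil1: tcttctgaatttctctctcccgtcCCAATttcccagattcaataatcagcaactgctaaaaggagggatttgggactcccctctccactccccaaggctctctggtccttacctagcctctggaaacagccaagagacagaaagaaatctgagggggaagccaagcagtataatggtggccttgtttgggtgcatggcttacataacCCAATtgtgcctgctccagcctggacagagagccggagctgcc
Rnf7: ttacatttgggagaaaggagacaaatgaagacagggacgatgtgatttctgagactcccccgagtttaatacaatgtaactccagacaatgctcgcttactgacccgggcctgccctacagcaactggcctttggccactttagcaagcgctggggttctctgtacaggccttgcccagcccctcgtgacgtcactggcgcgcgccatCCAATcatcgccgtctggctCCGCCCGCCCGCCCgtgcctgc
Nme7: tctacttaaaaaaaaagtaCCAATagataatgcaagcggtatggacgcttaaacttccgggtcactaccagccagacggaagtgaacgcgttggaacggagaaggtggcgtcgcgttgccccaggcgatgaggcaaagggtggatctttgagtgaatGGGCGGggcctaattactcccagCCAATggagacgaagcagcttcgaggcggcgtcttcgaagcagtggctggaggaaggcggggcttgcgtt
Copz2: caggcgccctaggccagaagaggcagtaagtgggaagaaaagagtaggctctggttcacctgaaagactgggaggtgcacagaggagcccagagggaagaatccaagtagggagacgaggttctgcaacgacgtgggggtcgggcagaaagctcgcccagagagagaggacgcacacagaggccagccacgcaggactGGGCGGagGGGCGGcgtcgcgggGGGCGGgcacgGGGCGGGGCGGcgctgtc
The Copz2 window holds 5 GC boxes and the Rnf7 window 3 GC boxes and 1 CCAAT. The Nme7 window holds 2 CCAAT motifs and 1 GC box, and the Chil1 window 2 CCAAT motifs only.

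Several markers of alveolar macrophages were higher in C3H/HeJ. Of 15 genes measured, 5 were called higher and none lower with all arrays, and 5 and none without array 2, with 4 in both fits. Over all genes 4.12% were called with all arrays and 2.95% without array 2. The differences of all 15 were above 0 in both fits, with a median of 0.51 and 0.43. Krt79, a keratin that marks alveolar macrophages in mouse lung, read 9.40, 9.40 and 9.62 in C3H/HeJ and 7.89, 7.68 and 7.73 in MRL/MpJ, at 1.71 ± 0.11 (adjusted p = 2.74e-10). Itgax, the integrin CD11c, read 8.41, 8.39 and 8.28 against 7.67, 7.89 and 7.94, at 0.53 ± 0.10 (adjusted p = 0.00145). Pparg, the nuclear receptor that alveolar macrophages need, read 7.96, 8.28 and 7.73 against 7.40, 7.41 and 7.51. C3H/HeJ was above MRL/MpJ on every array for these 3 genes. Pparg is also a fat gene, and its difference was 0.55 with array 2 and 0.41 without it. Atp6v0d2, a proton pump subunit, differed by 0.51 but lost its call without C3H/HeJ array 1, MRL/MpJ array 1 or MRL/MpJ array 2 (adjusted p up to 0.0692). Marco (0.70) was called only with array 2 and Siglecf (0.47 without it) only without. Chil3, Car4 and Mrc1 differed by 0.31, 0.12 and 0.39 and did not pass. Per array the list stood at 0.19 to 0.38 in C3H/HeJ and -0.22 to -0.06 in MRL/MpJ relative to the other 7 strains, with no overlap. Lists of several other cell types also separated without overlap, such as platelets (higher in C3H/HeJ) and neutrophils (lower).

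Interstitial macrophage and monocyte genes had 2 of 16 called higher with all arrays, Folr2 and Treml4, and none without array 2. Folr2 lost its call in each of the 6 fits that left out an array, and Treml4 in 4 of them. For this and the lists below, 4.12% of all genes were called with all arrays and 2.95% without array 2. Some genes of macrophages outside these lists, higher in C3H/HeJ, were chosen after their values were seen, so their direction adds nothing to the lists. Ctsk, the protease cathepsin K, read 8.08, 8.13 and 8.09 against 6.69, 6.76 and 7.06, at 1.26 ± 0.14. Clec4n, the lectin receptor dectin-2, read 8.43, 8.18 and 8.19 against 7.11, 7.0 and 7.22, at 1.16 ± 0.15. Cd72, a receptor of B cells and macrophages, read 6.20, 6.47 and 5.94 against 5.07, 4.94 and 5.23, at 1.13 ± 0.14. None of 15 B cell, 16 T cell, 20 NK cell, 15 dendritic cell or 11 platelet genes was called by limma in either fit. At an unadjusted p under 0.05 with all arrays, 3 B cell, 1 T cell, 5 NK cell, 5 dendritic cell and 3 platelet genes passed, and 0, 3, 3, 3 and 2 without array 2. Differences were above 0 for 14, 5, 15, 11 and 10 of them with all arrays, and for 14, 4, 12, 10 and 9 without array 2. Relative to the other 7 strains, B cell genes stood at -0.23 to 0.09 per array in C3H/HeJ and -0.37 to -0.31 in MRL/MpJ. Platelet genes stood at 0.24 to 0.32 and -0.01 to 0.20, so neither list overlapped. Of 15 neutrophil genes, S100a9 was lower by 0.78 and Lcn2 higher by 0.53, both only with all arrays. Among 12 mast cell genes Hdc, the enzyme that makes histamine, read 8.12, 7.89 and 7.71 against 8.49, 8.71 and 8.57, at -0.69 ± 0.11 (adjusted p = 2.60e-04). It was the only one called, beside 2.52% of all genes called in both fits. The list did not share its direction: 9 of the 12 differences were above 0 in each fit, with a median of 0.03 and 0.02. Ighg1, an immunoglobulin heavy chain gene of plasma cells, read 6.01, 5.52 and 5.12 against 6.70, 9.15 and 8.89, and its call was lost without array 2 of C3H/HeJ (adjusted p = 0.083) and without 4 of the other 5 arrays (adjusted p up to 0.148).

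Some gamma protocadherins, adhesion proteins from a gene cluster in which alternative first exons are joined to shared last exons, were lower in C3H/HeJ. Of 22 measured, 6 were called lower and none higher, the same count in both fits, and the median difference was -0.32 and -0.28. Among all genes 2.52% were called in both fits. Beside Pcdhgb5, Pcdhgb7 read 7.68, 6.77 and 7.38 against 8.78, 8.44 and 8.68, at -1.35 ± 0.17. Pcdhgb6 read 6.32, 6.68 and 6.69 against 7.55, 7.65 and 7.54, at -1.02 ± 0.15. Pcdhga9 read 7.06, 7.0 and 7.15 against 8.06, 7.88 and 7.58, at -0.77 ± 0.13. For these 4 genes no C3H/HeJ array reached the lowest MRL/MpJ array. Pcdhga10 (-0.66) and Pcdhgc5 (-0.74) lost their calls without C3H/HeJ array 1 or MRL/MpJ array 1, with adjusted p up to 0.0826 and 0.0666. Pcdhgc3 differed by 0.19 (adjusted p = 0.21), so the members did not all go the same way. C3H/HeJ lay below the other 7 strains for all 6 called genes. Whether their probe sets share sequence was not tested.

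**Figure D5:**
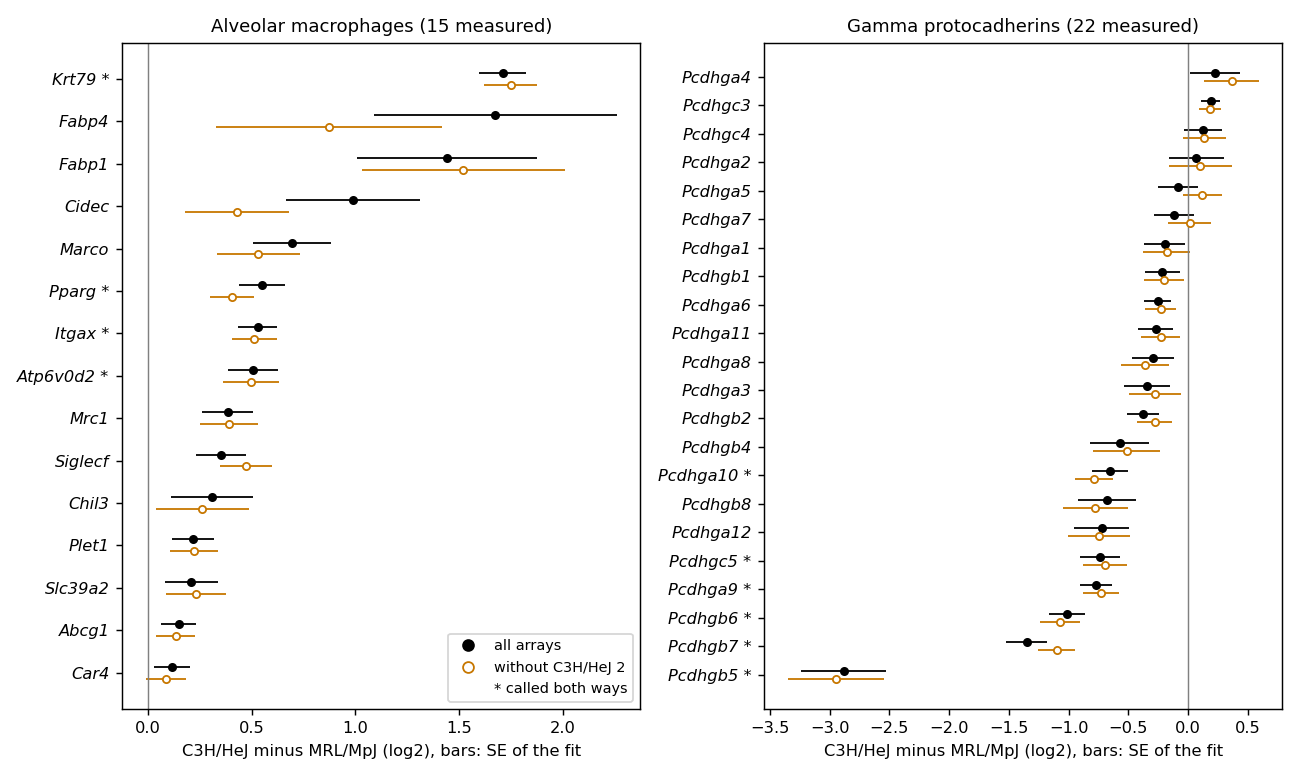
Difference between the strains (log2, C3H/HeJ minus MRL/MpJ, bars 1 SE of the fit) for 15 alveolar macrophage genes and 22 gamma protocadherins, with all arrays (filled) and without array 2 of C3H/HeJ (open). All 15 macrophage genes lie above 0 in both fits, and the 6 protocadherins called in both fits are marked with an asterisk at -0.66 to -2.88.

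Both strains carry the k haplotype of the major histocompatibility complex, and none of 21 class I genes was called by limma in either fit (1 at an unadjusted p under 0.05 in each). H2-D1 read 8.67, 8.84 and 8.50 in C3H/HeJ and 8.67, 8.64 and 8.67 in MRL/MpJ, a difference of 0.01, while the other 7 strains were at 9.91 to 10.27. H2-Q6 read 7.25, 7.14 and 7.16 against 7.28, 7.40 and 6.78, with the others at 8.34 to 9.89. For H2-D1 and H2-Q6 both strains were below all others and near each other. H2-Ea, a class II alpha chain that strains of the b haplotype lack, read 11.23, 11.23 and 11.09 against 10.74, 11.01 and 11.02, with the others between 4.79 and 11.42. Of 12 class II genes, H2-Aa (0.45), H2-Oa (0.62) and Ciita (0.57), the master regulator of class II, were called higher with all arrays and none without array 2. Over all genes 4.12% and 2.95% were called. Each of the 3 also lost its call without MRL/MpJ array 1. All 12 differences were above 0 in both fits, with a median of 0.29 with all arrays and 0.26 without array 2.

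Tlr4, the endotoxin receptor whose defect in C3H/HeJ is a coding change, read 7.90, 7.39 and 7.47 against 7.36, 7.27 and 7.53 (difference 0.20, adjusted p = 0.45). Of 22 Toll-like receptor signalling genes, 3 were called higher and 1 lower with all arrays, beside 4.12% of all genes called. Tlr11 read 5.51, 5.43 and 5.52 against 5.0, 5.13 and 4.91, at 0.47 ± 0.10, and was not called without MRL/MpJ array 3. Tlr7, a receptor for single-stranded RNA, differed by 0.59 and was not called without C3H/HeJ array 1 or MRL/MpJ array 1. Tlr1, which pairs with Tlr2 on bacterial lipopeptides, differed by -0.66 and lost its call without any 1 of 5 arrays. The highest adjusted p in these fits was 0.0967 for Tlr1, 0.0763 for Tlr7 and 0.0537 for Tlr11. Ticam2, the adaptor that links Tlr4 to interferon induction, was 0.47 higher with all arrays and not called without array 2 (adjusted p = 0.0575).

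Of 27 interferon-stimulated genes, 3 were called higher and none lower, in each fit. Over all genes 4.12% were called with all arrays and 2.95% without array 2. Ifit3, which binds foreign RNA, read 7.50, 7.05 and 7.18 against 6.06, 6.19 and 6.21, at 1.09 ± 0.21 (adjusted p = 0.00262). Ifih1, the RNA sensor MDA5, and Oas2 were 0.38 and 0.55 higher, and both lost their calls without C3H/HeJ array 1 (Oas2 also without MRL/MpJ array 1 or 3). The median over the list was 0.20 with all arrays and 0.29 without array 2. Relative to the other 7 strains the list stood at 0.29 on C3H/HeJ array 1 and at 0.03 and -0.01 on arrays 2 and 3, and without array 1 there was 1 call and a median of 0.15. Gbp2b was the only one of 14 interferon-inducible GTPases called with all arrays. That list stood at 0.66 on C3H/HeJ array 1 and at -0.08 and -0.11 on arrays 2 and 3, and its median difference of 0.32 was 0.03 without array 1, with 1 gene called higher and 1 lower. Iigp1 read 8.22, 6.71 and 7.19 against 6.05, 6.85 and 6.03, and was called only without array 2, at 1.40 (adjusted p = 0.0154). In the Ifi200 cluster of nucleic acid sensors, Ifi203 read 6.92, 6.52 and 6.55 against 8.08, 8.15 and 7.67, at -1.30 ± 0.15 (adjusted p = 3.22e-06), while Ifi211 was higher by 1.12 only without array 2. Array 1 of C3H/HeJ was the highest of its strain for Ifit3, Iigp1 and Ifi211.

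Complement genes had 3 of 20 called higher and none lower, in both fits, beside 2.52% of all genes called in both. Cd59a, which blocks the membrane attack complex, read 7.93, 7.81 and 7.46 against 6.41, 6.34 and 6.26, at 1.40 ± 0.18 (adjusted p = 2.89e-05). C6, a component of that complex, read 8.48, 8.29 and 8.42 against 7.81, 7.85 and 8.04, at 0.50 ± 0.10. Hc, complement C5, which some inbred strains lack, read 11.19, 10.89 and 10.95 against 10.57, 10.70 and 10.68, at 0.36 ± 0.09, and was not called without C3H/HeJ array 1 or MRL/MpJ array 1 (adjusted p up to 0.109). Of 36 chemokines, Cxcl14 and Cxcl17 were lower in both fits and none was higher. Cxcl17, a mucosal chemokine of airway epithelium, read 7.26, 7.35 and 7.07 against 8.12, 7.93 and 8.21, at -0.86 ± 0.11 (adjusted p = 3.19e-05). Among 9 alpha-1-antitrypsin family serpins, Serpina3n was higher by 0.84 ± 0.17 (adjusted p = 0.00325), and Serpina1b was lower by 2.91 only with all arrays.

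With all arrays, 3 of 16 alveolar type II, 2 of 15 ciliated, 1 of 12 club cell and 2 of 12 mucous cell genes were called, beside 4.12% of all genes, and without array 2 these counts were 2, 0, 0 and 1. None of 13 alveolar type I genes was called by limma in either fit (3 at an unadjusted p under 0.05 with all arrays, 0 without array 2). Of 16 type II genes, Sftpb, a surfactant protein, read 11.80, 11.74 and 11.92 against 12.13, 12.29 and 12.15, at -0.37 ± 0.07 (adjusted p = 0.0030), Hc was higher, and Scd1 was higher only with all arrays. Sftpc differed by 0.15 and Sftpd by 0.23 and neither passed. The ciliated genes Ccdc39 and Sntn and the club cell gene Upk3a were lower only with all arrays, of 15 and 12 genes measured. Beside Bpifb1, the mucous cell genes Muc5b (-0.35) and Reg3g (-0.48) did not pass. Bpifb5, of the same secreted family and named after its values were seen, read 6.04, 6.10 and 6.15 against 7.15, 7.33 and 7.11, at -1.10 ± 0.09. Ceacam1, an adhesion receptor of epithelia that was also chosen after its values were seen, read 9.32, 9.04 and 9.03 against 7.15, 7.93 and 7.66, at 1.55 ± 0.14. Of 22 cytochromes P450, 2 were lower in both fits and none was higher, beside 2.52% of all genes called in both. Cyp2d22 read 7.98, 8.0 and 8.01 against 8.97, 8.85 and 8.79, at -0.87 ± 0.09 (adjusted p = 1.14e-06), and Cyp4b1, a major lung enzyme, was lower by 0.32 ± 0.07.

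Of 33 wound repair genes measured, 2 were called higher and 1 lower with all arrays, beside 4.12% of all genes, and 2 and none without array 2. The lower one was Tgfbr2 (-0.23), a TGF-beta receptor. Rnf7 was the larger, and Fgf2, a growth factor of vessels and fibroblasts, read 7.40, 7.10 and 7.04 against 6.96, 6.64 and 6.88, at 0.35 ± 0.09, with its call lost without C3H/HeJ array 1 or MRL/MpJ array 2 or 3 (adjusted p up to 0.183). Cdkn1a, whose loss permits ear wound closure in other mice, differed by 0.08 (adjusted p = 0.85), and Hif1a by 0.17 (adjusted p = 0.30). Of 17 matrix metalloproteinases, Mmp3 read 6.72, 6.77 and 6.91 against 6.15, 5.65 and 5.97, at 0.88 ± 0.13 (adjusted p = 1.90e-04), and Mmp19 was higher by 0.53 ± 0.11 (adjusted p = 0.00448). Mmp2 (0.11) and Mmp9 (-0.36) did not pass. Among 20 fibroblast and matrix genes, Postn was called higher in both fits, at 0.44 with all arrays, but lost its call without any of 4 other arrays, and Lum was 1.01 higher with all arrays only. Of 28 cell cycle genes Mki67 was the only one called, with all arrays only.

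Lung tumour candidate genes had 4 of 27 called higher and 3 lower with all arrays, and 3 and 1 without array 2. The shares called over all genes were 4.12% and 2.95%. Hbegf was the largest of them, while Egfr, its receptor, differed by -0.21 (adjusted p = 0.29). Myc, a transcription factor of growth, read 6.68, 6.47 and 6.50 against 6.07, 6.15 and 5.97, at 0.49 ± 0.10 (adjusted p = 0.0068). Itpr2, a calcium channel gene, read 8.83, 8.78 and 8.91 against 8.52, 8.54 and 8.58, at 0.30 ± 0.06. Fgfr1op2 read 7.45, 7.61 and 7.56 against 8.12, 7.99 and 7.96, at -0.48 ± 0.08 (adjusted p = 8.25e-04). For Myc, Itpr2 and Fgfr1op2 the strains did not overlap, and each kept its call in all 6 fits that left out an array. Cdkn2b, an inhibitor of the cell cycle, was lower by 0.52 only with all arrays.

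Me1, malic enzyme, which supplies NADPH for fat synthesis, read 8.94, 9.86 and 9.0 against 7.66, 8.49 and 7.66, at 1.33 ± 0.25 with all arrays and 1.04 without the fat-bearing array. Stard4, which moves cholesterol between membranes, read 8.21, 8.01 and 8.32 against 8.91, 8.96 and 8.81, at -0.71 ± 0.09 (adjusted p = 2.61e-05). Me1 and Stard4 were the only ones of 22 cholesterol and lipid genes called in both fits, and Scd1 was called with all arrays only. Of 18 clock genes, Per1 was higher by 0.74 ± 0.17 (adjusted p = 0.00969) in both fits, Bhlhe41 was higher by 0.53 and Npas2 lower by 0.51 with all arrays only, and Dbp (0.25) did not pass. Of 26 ribosomal protein genes, the Rps6 probe set read lower, and Rpl30 and Rpl14 were higher by 0.67 ± 0.13 and 0.73 ± 0.15, in both fits. Beside these lipid, clock and ribosomal counts, 4.12% of all genes were called with all arrays and 2.52% in both fits. None of 20 Nrf2 antioxidant genes was called by limma with all arrays (3 at an unadjusted p under 0.05).

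Of 35 measured genes with known variants among inbred strains, 4 were higher and 3 lower with all arrays, and 5 and 3 without array 2. The shares called over all genes were 4.12% and 2.95%. Mamdc2, Gbp2b, Hc and Gpnmb were higher and Ctse and Stard10 lower in both fits. Gpnmb, a lysosomal protein truncated in DBA/2J, read 8.35, 8.26 and 8.31 against 7.78, 7.73 and 7.91, at 0.50 ± 0.12, and lost its call without C3H/HeJ array 1 or MRL/MpJ array 1 or 2. Stard10, a lipid transfer protein, read 8.80, 8.98 and 8.84 against 9.46, 9.36 and 9.45, at -0.55 ± 0.10. Glo1 was lower by 0.45 only with all arrays. Nnt, the mitochondrial transhydrogenase, was lower by 0.42 and Fas, the death receptor mutated in a substrain of MRL, higher by 0.41, both only without array 2. Pde6b, the retinal enzyme mutated in C3H/HeJ, read 3.49, 3.71 and 3.68 against 3.62, 3.80 and 4.08, low in both. Naip5 (0.42), Klrd1 (0.54), Ifi202b (-0.52), Ahr (-0.26) and Dysf (-0.24) did not pass in either fit. The other members, Tlr4, Nlrp1b, Mx1, Cd5l, Alad, Tyr, Tyrp1, Oca2, Myo5a, Mlph, a, Cdh23, H2-Ea, Nod2, Slc11a1, Pla2g2a, Cyp2d9, Trim30a, Entpd4 and Ide, did not pass either.

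Some genes called in both fits lay side by side. Along GRCm38.p6, 60 of the 511 (11.7%) had a called gene directly beside them, against 992 of all 20239 genes (4.9%). There were 7 runs of at least 3 called genes with at most 2 uncalled measured genes between successive ones, holding 24 genes. The gamma protocadherins gave the longest, with 5 genes. Gatm (2.01), Bloc1s6 (0.52), Sqor (0.33) and Sema6d (0.32) formed a run in which all 4 were higher in C3H/HeJ. Fibin (-2.09), Slc5a12 (-1.86) and Ano3 (0.45), and also Vamp5 (-0.64), Ggcx (0.39) and Capg (1.52), were runs with both directions. So was the run of Dact1 (-0.62), L3hypdh (0.70) and Rtn1 (0.50). Apoc1 (-0.68), Nectin2 (-0.30) and Bcam (-0.46) were all lower, as were Adgrg1 (-0.43), Adgrg3 (-0.75) and Drc7 (-0.32). Sqor, Sema6d, Rtn1, Apoc1, Nectin2, Adgrg1 and Drc7 each lost the call in at least 1 fit that left out an array other than array 2. Adam28 (-1.31) and Adamdec1 (-0.97), adjacent genes of the same protease family that were chosen after their values were seen, were both lower.

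Probe sets of microRNA genes read the precursor or its host transcript and not the mature microRNA. Of 283 microRNA genes with a RefSeq entry, 3 were called with all arrays, all higher in C3H/HeJ, and 2 in both fits. These are smaller shares than the 4.12% and 2.52% of all genes. The mature sequences of these 3 are shown with the seed, bases 2 to 8, in capitals.
mmu-miR-491-5p: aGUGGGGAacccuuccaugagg
mmu-miR-491-3p: cUUAUGCAagauucccuucuac
mmu-miR-695: aGAUUGGGcauaggugacugaa
mmu-miR-126a-3p: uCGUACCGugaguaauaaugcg
No seed is shared among them. Mir491 read 4.28, 4.38 and 4.08 in C3H/HeJ and 3.78, 3.67 and 3.81 in MRL/MpJ, at 0.50 ± 0.10 (adjusted p = 0.00447). Each Mir491 value lies within the range of the Y-linked genes, at a level that only Sry among them reached. The host gene Focad, named after its values were seen, read 7.58, 7.48 and 7.29 against 7.09, 6.94 and 7.07, at 0.42 ± 0.09. Mir695 was higher by 0.41 and lost its call without C3H/HeJ array 1 or 3 or MRL/MpJ array 1 (adjusted p up to 0.13). Mir126a, from a microRNA known in endothelium, was higher by 0.63 and was not called without array 2 (adjusted p = 0.0664).

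Of the 36 pairs of strains, which share arrays, this pair had the fewest called genes: 834 against 872 to 3341 for the other 35. Without array 2 it had 598 against 711 to 3631. With a minimum difference of 1 it had 79, and the other pairs had 71 to 199. C3H/HeJ had 942 to 2088 called genes with each of the other 7 strains, and MRL/MpJ had 1340 to 3341.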

How the data were processed

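Right lung RNA of 27 female mice, 3 for each of 9 inbred strains, was hybridised to Mouse Gene 1.0 ST arrays. The authors deposited 1 log2 signal per probe set and array, made with affy, per the submitters' processing notes. How the signal was normalized, and the affy version, are not given in the sources used here. Those values, from 1.78 to 13.35 with array medians of 6.24 to 6.37, were used without further scaling. Of 21225 probe sets, 20239 had a single gene symbol in the platform annotation and were tested, and 986 had none.

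Using R 4.3.3 and limma 3.58.1, lmFit with 1 mean per strain and eBayes were run on all 27 arrays, and on 26 without array 2 of C3H/HeJ, with Benjamini-Hochberg adjustment over all genes. The scripts were tested on simulated data. The number of arrays limits the precision. The genes named are the 15 with the largest difference in each direction among those called in both fits and not overlapping, called members of gene lists, list members that mark a tissue, the genes moved most by array 2, genes with known strain variants, and runs of neighbouring genes; exceptions are marked in the text. The comparison and the 56 gene lists were chosen with earlier results of these data known. Promoter and microRNA sequences are from RefSeq (GRCm38.p6), matched by symbol. Alternatives covered leaving out arrays, the arrays in the fit, scaling, filters, the variance prior, array weights, a replicate block and a minimum difference.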

Additional observations from a re-analysis of the deposited data

How the results depend on the processing

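None of the 140 named called genes changed direction under the alternatives that tested it. Leaving out each array in turn, genes higher in C3H/HeJ numbered 288 to 651 and lower 217 to 353, and those differing by at least 1 numbered 42 to 74 higher and 31 to 34 lower. Fitting only the 6 arrays of both strains, which leaves fewer arrays to estimate the spread, gave 95 higher and 92 lower genes, and 93 and 84 without array 2 as well. Array weights gave 228 and 188. A minimum difference of 0.5 gave 207 higher and 170 lower genes, in place of 472 and 362 without a minimum and 46 and 33 with a minimum of 1. Quantile normalization, median centring, the filter on dim probe sets, all probe sets, and a trended robust prior kept the counts within 1.5 times, although the balance of higher and lower genes turned under both scalings. The replicate block gave 459 higher and 359 lower genes; arrays with the same number deviated from their strain means with correlations of 0.08, -0.07 and 0.05, against -0.17 to 0.13 for different numbers, and 1 of 3 C3H/HeJ arrays correlated best with its own number, so they were not treated as paired. Of 140 named called genes, 57 were called in every alternative, as were 26 of the 30 with the largest differences; among those 30, H19 was lost with 6 arrays only (adjusted p = 0.0826), Dnah7a with 6 arrays less array 2 of C3H/HeJ (adjusted p = 0.0834), and Chchd2 and the kappa variable segment as given above and with 6 arrays only, the segment also with array weights. With 3 mice per strain, small differences may be missed.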

Other observations

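Some further genes with differences of at least 1 belong to no list, were chosen after their values were seen, and were called in all 6 fits that left out an array. Mgp, matrix Gla protein, which keeps soft tissue from calcifying, read 10.74, 10.74 and 11.11 on C3H/HeJ arrays 1 to 3 and 9.40, 10.03 and 9.90 on MRL/MpJ arrays 1 to 3, a difference of 1.09 ± 0.16 (SE). Wnt10b, a secreted Wnt ligand, read 6.0, 5.95 and 6.34 against 7.54, 7.05 and 7.24, at -1.18 ± 0.16, and MRL/MpJ was above and C3H/HeJ below the other 7 strains (6.22 to 6.86). Golm2 read 7.92, 7.67 and 7.93 against 9.19, 9.18 and 9.14, at -1.33 ± 0.11. Fggy, a carbohydrate kinase family member, read 6.70, 6.59 and 6.49 against 5.10, 5.09 and 5.35, at 1.41 ± 0.13. The strains did not overlap for any of these 4 genes. Angptl7, a secreted angiopoietin-like protein, read 6.26, 8.13 and 5.89 against 5.10, 5.22 and 4.89, at 1.69 with all arrays and 1.00 without array 2 of C3H/HeJ.

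Of the genes called only without array 2 of C3H/HeJ, the smallest p-values belonged to Acacb, Hal, Kcnab1, Hmgn3 and Mylk4. Acacb, the acetyl-CoA carboxylase of muscle and other oxidative tissue, read 6.63, 8.13 and 6.60 against 7.36, 7.31 and 7.25, a difference of -0.18 with array 2 and -0.69 without it (limma adjusted p = 1.83e-04). Mylk4, a myosin light chain kinase, read 5.10, 6.26 and 4.85 against 5.87, 5.68 and 5.80, and its difference was -0.38 and -0.81. Hal, the enzyme that starts histidine breakdown, read 5.50, 6.80 and 5.61 against 6.43, 6.39 and 6.25, at -0.38 and -0.80. Array 2 was above, and both other C3H/HeJ arrays below, all MRL/MpJ arrays for Acacb, Mylk4 and Hal. Kcnab1 differed by -0.64 and Hmgn3 by 0.63 without array 2.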
